A study of Mus musculus with 6 samples.

Results

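A group of 201 long non-coding RNAs (lncRNAs) in cultured mouse spermatogonial stem cells (SSCs) had fewer reads once GDNF (glial cell line-derived neurotrophic factor) had been given back than either before or during its removal. These 201 members were selected on their read counts from 12797 eligible lncRNAs, among 73710 listed in any library. Eligible lncRNAs were shorter than 10000 bp, reached 50 counts in 2 or more of the 6 libraries and were outside the 30 most-read lncRNAs and a short set of named transcripts. A member's lowest level in the 4 libraries without GDNF re-addition had to be at least 1.5 times its highest level in the 2 libraries with it. Levels are given as CPM, that is the reads of a lncRNA per 1000000 reads counted on all lncRNAs in the same library.

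RNA came from Thy1-positive germ cells of C57BL/6 pups aged 6 to 8 days, with 5 pups pooled per isolation, and kept for 10 to 20 passages on mitotically inactivated STO feeder cells, a mouse fibroblast line. All cultures grew in serum-free medium with the soluble receptor GFRA1 at 150 ng/ml, basic fibroblast growth factor FGF2 at 1 ng/ml and, in normal culture, GDNF at 20 ng/ml. Normal cultures (N) kept GDNF throughout, the 0h cultures were without it for 18 h, and the 8h cultures were without it for 18 h and then had it again for 8 h. Each condition had n = 2 libraries, numbered 1 and 2 in the labels, and the study's methods describe 2 independently established SSC lines. The 8h cultures differ from the 0h cultures both in GDNF and in 8 h of further culture, and these cannot be told apart here.

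GDNF is secreted by somatic cells of the testis and binds the co-receptor GFRA1, which signals through the receptor tyrosine kinase RET to keep SSCs self-renewing and alive. lncRNAs are long transcripts that do not code for proteins, and some of them act on the chromatin or the transcripts of neighbouring genes. Known lncRNAs carry NONCODE identifiers (n and a number) and predicted ones carry Cufflinks transcript numbers (TCONS), neither of which was paired with a gene name, position or strand in the sources used here. The functions of the members are therefore not described, and markers of spermatogonia or of feeder cells could not be looked up. In such bulk libraries fewer cells of a type and less RNA per cell cannot be told apart.

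Reads counted on lncRNAs came to between 7.69 and 8.50 times 1000000 per library, so that 3 counts, the limit that a count of 0 would allow, corresponded to 0.353 to 0.390 CPM. Every member was listed in all 6 libraries, with a lowest count of 4, and 18 of the 201 members had fewer than 10 counts in at least 1 of the 8h libraries.

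The members together took 5320 and 5429 CPM in the N libraries and 5100 and 5124 CPM in the 0h libraries. In the 8h libraries their sum was 2315 and 2329 CPM. Without n417952, the member with the most reads, the sums were 4106 and 4122 CPM in N, 3845 and 3868 CPM in 0h, and 1763 and 1684 CPM in 8h. The drop in 8h was thus spread over the group and is what the members were chosen by. For the median member, the mean level in 8h was 37.9% of that in N (quartiles 29.9% and 46.7%) and 41.5% of that in 0h (quartiles 33.3% and 50.1%). The ratio of the lowest N or 0h level to the highest 8h level had a median of 1.79, reached at least 2 in 61 members, at least 3 in 12 and at least 4 in 5.

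**Figure D1:**
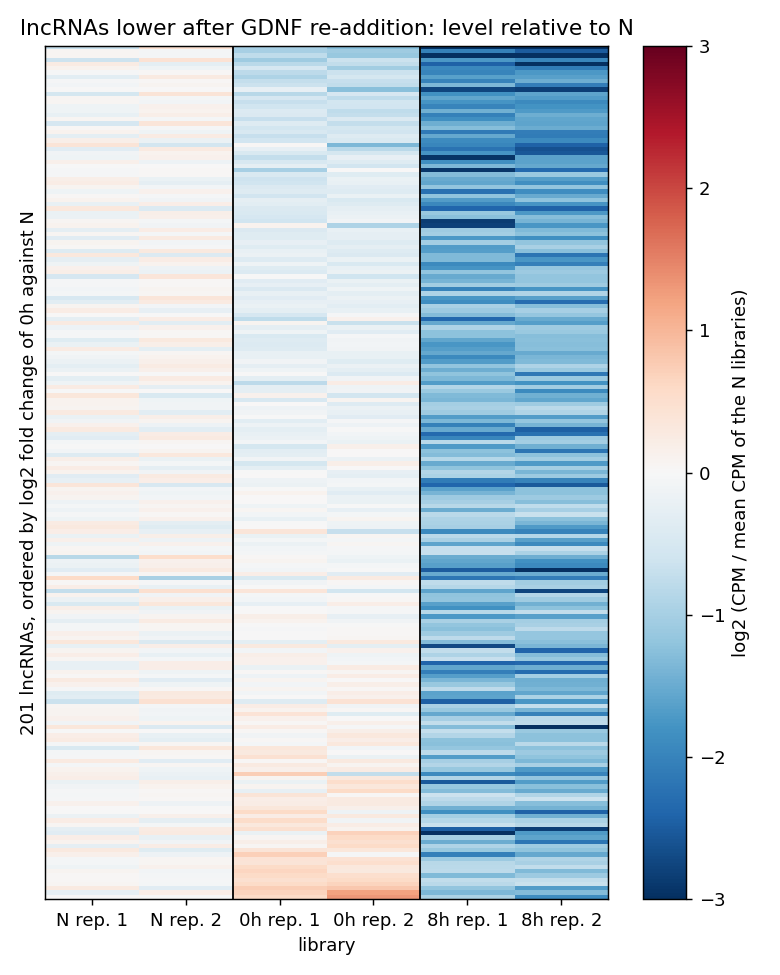
Level of each of the 201 members (rows, ordered by the log2 fold change of 0h against N) in the 6 libraries (columns), as log2 of the CPM over the mean CPM of the N libraries. The 8h columns are below N in every row, by the choice of the members, whereas the 0h columns run from below N at the top to above N at the bottom.

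Predicted lncRNAs made up more of the members than of the lncRNAs they were chosen from. Of the 201 members 117 were predicted and 84 known, or 58.2% predicted, against 40.1% of the 12797 eligible lncRNAs. Lengths were alike, with a median of 2128 bp (276 to 7371 bp) against 2114 bp. The members had fewer reads per length than eligible lncRNAs, with a median of 4.54 against 8.84 RPKM (reads per kilobase and per 1000000 counted reads) over the 6 libraries, the low 8h libraries included. Neither trait was particular to the members. Sets chosen by the same ratio in other directions, described below, were 62.6% and 53.1% predicted, with medians of 4.15 and 5.19 RPKM. Known members had a median length of 2432 bp and 5.08 RPKM, and predicted members 1982 bp and 4.29 RPKM. The median 8h level was 39.5% of N in known and 37.4% of N in predicted members, values that the rule bounds and that were not tested against each other.

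Of the eligible lncRNAs with a mean of 20 CPM or more 0.633% (35 of 5527) were members, and of those between 10 and 20 CPM 1.62% (47 of 2902). Another 97 members had a mean between 5 and 10 CPM and 22 a lower one. No share is read from these, because the minimum of 50 counts equals 5.88 to 6.51 CPM, so that a lncRNA with a low mean could become eligible through its higher libraries alone. The spread between replicates was wider at low counts, the median standard error of the log2 fold change of 0h against N being 0.23 for members of 20 CPM or more and 0.41 for those below 5 CPM. The part of this spread in the membership was not tested.

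By reads the group was led by n417952, a known lncRNA of 276 bp that was also the shortest member. It had 1214 and 1306 CPM in N, 1255 and 1257 CPM in 0h, and 551 and 645 CPM in 8h. The 0h values lay between the N values, and both 8h values were far below. Its mean in 8h was 47.5% of N (2.11-fold lower), and the log2 fold change of 8h against N was -1.15 (standard error 0.14). Per length it ranked 2 among the eligible lncRNAs, with a mean of 3761 RPKM over the 6 libraries, and reads covered 98.9% to 99.6% of it in every library. The member with the next highest level per length, TCONS_00112746, had a mean of 143 RPKM.

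Among the predicted members TCONS_00037197 (5353 bp) had the most reads. Its levels were 367 and 392 CPM in N, 345 and 375 CPM in 0h, and 213 and 225 CPM in 8h. The N and 0h ranges overlapped, and the 8h mean was 57.8% of N, one of the smaller drops of the group. TCONS_00112746 (2014 bp) had 401 and 323 CPM in N, 349 and 347 CPM in 0h, and 186 and 116 CPM in 8h. Its 8h replicates were farther apart, as a ratio, than those of the other 7 members with the most reads, and reads still covered 91.6% and 98.2% of its length there.

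TCONS_00038071 (3263 bp) had its highest levels during withdrawal. It had 147 and 144 CPM in N, 184 and 160 CPM in 0h, and 53.5 and 54.3 CPM in 8h. Both 0h values were above both N values, and the 8h mean was 37.1% of N and 31.3% of 0h.

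The known n282112 (4608 bp) declined in steps, with 94.8 and 96.0 CPM in N, 78.5 and 64.3 CPM in 0h, and 37.7 and 33.1 CPM in 8h. TCONS_00071259, the longest member (7371 bp), had 84.0 and 89.1 CPM in N, 72.5 and 71.0 CPM in 0h, and 41.8 and 41.1 CPM in 8h. In both lncRNAs the 3 conditions did not overlap. For n268246 (2228 bp) the values were 87.3 and 64.9 CPM in N, 75.1 and 73.6 CPM in 0h, and 42.4 and 38.7 CPM in 8h. For n278556 (1774 bp) they were 92.8 and 67.4 CPM in N, 65.9 and 68.8 CPM in 0h, and 37.7 and 40.5 CPM in 8h. These known lncRNAs had N replicates that enclosed or overlapped their 0h values.

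The members with the highest ratios had lower counts. For n279381 (1516 bp) the N libraries had 78 and 75 reads (9.96 and 9.12 CPM), the 0h libraries 46 and 37 reads (5.65 and 4.35 CPM) and the 8h libraries 7 and 4 reads (0.911 and 0.4996 CPM). Its 8h mean was 7.39% of N, the lowest of all members, and 14.1% of 0h, and the conditions did not overlap. For TCONS_00070983 (2299 bp) the N libraries had 46 and 69 reads, the 0h libraries 81 and 65, and the 8h libraries 10 and 8. There the 8h mean was 16.1% of N and 13.1% of 0h, the lowest share of 0h among the members.

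n291804 (1361 bp) combined a high ratio with more reads. It had 32.3 and 49.9 CPM in N, 38.7 and 41.1 CPM in 0h, and 7.29 and 5.12 CPM in 8h. The 0h values lay between the N values, and the log2 fold changes were -2.81 (standard error 0.28) against N and -2.78 (standard error 0.28) against 0h. Reads lay on part of this lncRNA, covering 45.3% and 24.3% of its length in the N libraries, 30.8% and 40.4% in the 0h libraries and 51.1% and 23.8% in the 8h libraries. The covered share did not follow the level.

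TCONS_00044313 (2401 bp) had 8.17 and 10.9 CPM in N, 10.4 and 9.18 CPM in 0h, and 1.82 and 1.87 CPM in 8h. TCONS_00013266 (2360 bp) had 13.7 and 19.3 CPM in N, 14.1 and 15.7 CPM in 0h, and 3.25 and 3.497 CPM in 8h. In both, N and 0h overlapped and the 8h replicates were close to each other. TCONS_00149799 (2311 bp) had 10.1 and 6.08 CPM in N, 6.02 and 6.71 CPM in 0h, and 1.56 and 1.50 CPM in 8h. n293073 (3467 bp) had 8.68 and 7.42 CPM in N, 8.23 and 8.36 CPM in 0h, and 1.95 and 1.62 CPM in 8h. TCONS_00007054 (2291 bp), which is described with the withdrawal comparison, is another of the 8 members with the highest ratios.

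**Figure D2:**
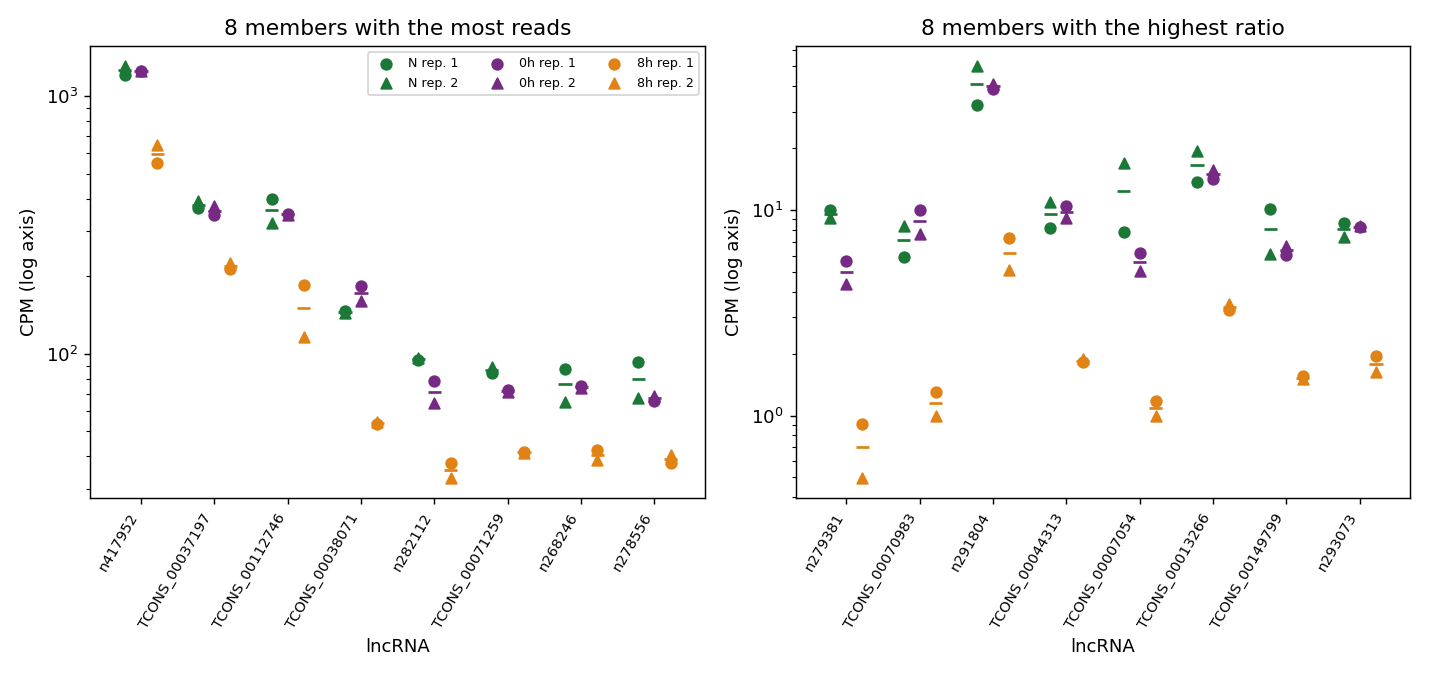
CPM (log axis) of the 8 members with the most reads and the 8 with the highest ratio (horizontal axis) in N, 0h and 8h, with circles for replicate 1, triangles for replicate 2 and short lines for the mean of 2. Every 8h point lies below the N and 0h points of its lncRNA, and the 0h points lie above N for TCONS_00038071 and below N for n282112.

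As the rule used 8h, the fits of 8h against the other conditions describe the members and test nothing. A lncRNA was called when its Benjamini-Hochberg adjusted p from the quasi-likelihood test of edgeR was below 0.05 and its change 2-fold or more. By this call 63 of the 201 members were lower in 8h than in 0h, where 0.392% of all 39310 lncRNAs tested were. Against N, 42 members were called lower, beside 0.153% of all tested. With the replicate number as a block these counts were 153 (1.47% of all tested) and 155 (1.21% of all tested). A fit of 0h and 8h alone gave 23 members lower than in 0h, and with 1 library left out 8 to 32 were lower than in 0h and 1 to 39 lower than in N. The median log2 fold change of the members was -1.36 against 0h, from -3.02 to -0.74, and -1.47 against N, from -3.81 to -0.78.

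The rule set no direction for 0h against N, the comparison of withdrawal. This comparison asks whether the members had already moved while GDNF was absent. The rule does bear on its size, because the lowest N or 0h library had to exceed 8h by the set ratio. By the same edgeR call 0 of the 201 members changed, beside 0.511% of the 39310 lncRNAs tested and 1.31% of the 12836 in a fit restricted, like the members, to at least 50 counts in a pair of libraries. DESeq2's Wald test also called 0. At the study's criterion, an unadjusted p below 0.05 and a change of 2-fold or more, 2 members were called, or 0.995%, beside 6.58% of all tested and 4.79% in the restricted fit. DESeq2 called 1 at this criterion, and edgeR with 1 library left out called 1 to 7 (7 without 0h replicate 1, 4 without N replicate 1, 1 without 0h replicate 2). At an unadjusted p below 0.05 with no fold limit 15 members were called by edgeR, 11 lower and 4 higher in 0h, or 7.46% beside 9.91% of all tested, and 7 were called by DESeq2. The restricted fit called 16 members, or 7.96% beside 14.2%. Under the rule a wide spread between N and 0h works against membership, so these low shares are partly built in. The size of that part was not tested.

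The members' changes on withdrawal were small and leaned downward. The median log2 fold change of 0h against N was -0.11, against -0.01 over all lncRNAs tested, with quartiles of -0.28 and 0.07. It was below 0 in 131 of the 201 members (65.2%) and in 50.6% of all tested, which include lncRNAs of fewer counts than the eligible ones. With 1 library left out, 116 (without N replicate 1) to 137 members (without 0h replicate 1) were below 0. By CPM, the median log2 ratio of 0h to N was -0.11 within replicate 1 and -0.11 within replicate 2. The direction was split between the replicates in 89 of the 201 members. Below 0 were 54 of the 84 known members and 77 of the 117 predicted members. These divisions of the same selected list give no separate support to the lean, which was not tested. For 125 members the 95% interval of the log2 fold change lay within a 2-fold change in either direction, and for the other 76 it passed a 2-fold change. In 64 of these 76 the interval held both a constant level and a 2-fold change, and in 12 it did not hold 0, before adjustment for multiple tests.

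**Figure D3:**
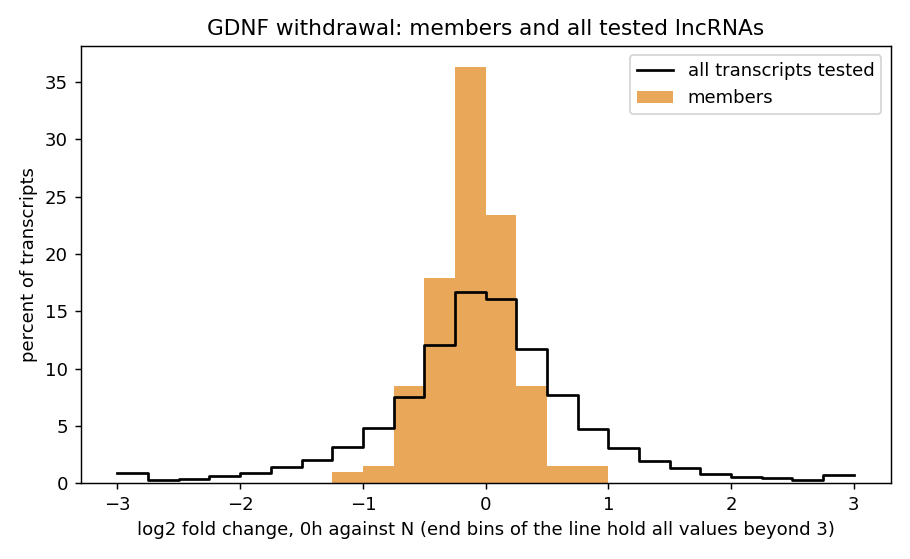
Log2 fold change of 0h against N (horizontal axis) for the members (bars) and for all 39310 lncRNAs tested (line), in percent of transcripts. The members lie between -1.12 and 0.99, with a median of -0.11, while the line extends past both ends. The widths are not comparable, because the line includes lncRNAs of fewer counts and the rule works against a wide spread in members.

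For description, the members were sorted by the position of their single libraries. The orders were a decline in steps, a rise and then a decline, and an overlap between N and 0h. Both 0h values were below both N values in 56 members (27.9%), where 23.5% of the eligible lncRNAs showed this order. These shares are near each other, so the stepwise order is not read as a trait of the members. Both 0h values were above both N values in 21 members (10.4%), beside 21.5% of the eligible lncRNAs. In the other 124 members N and 0h overlapped. An exact permutation test of 2 libraries against 2 cannot give a p below 0.333, so these orders are given without a test for single lncRNAs.

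The 56 members with the stepwise order had a median 0h level of 0.767 times N, and their 8h level was 32.6% of N and 45.5% of 0h in the median. Besides n282112 and TCONS_00071259, those with the most reads were n271868 and TCONS_00028892, named here after their values were seen. n271868 (3536 bp) had 55.7 and 51.4 CPM in N, 33.4 and 39.7 CPM in 0h, and 15.0 and 18.2 CPM in 8h. TCONS_00028892 (5170 bp) had 39.97 and 37.8 CPM in N, 26.5 and 27.1 CPM in 0h, and 16.1 and 13.9 CPM in 8h. In each of these the step from 0h to 8h was larger than the step from N to 0h on a ratio scale. The rule set a minimum for the step from 0h to 8h and none for the step from N to 0h. In each of them the step from N to 0h was below that minimum, so this order of sizes followed from the choice of the members.

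The 2 members called at the study's criterion were both lower in 0h. The call and their stepwise order rest on the same values. TCONS_00007054 had 7.79 and 16.9 CPM in N, 6.14 and 5.06 CPM in 0h, and 1.17 and 0.999 CPM in 8h, with 9 and 8 reads in 8h. Its log2 fold change of 0h against N, the lowest of all members, was -1.12 (standard error 0.40, adjusted p = 0.338 in edgeR's quasi-likelihood test). The change without replicate 2 of N, which was far above replicate 1, was -0.46. TCONS_00058015 (3525 bp), named after its values were seen, had 6.64 and 6.08 CPM in N, 3.20 and 3.06 CPM in 0h, and 1.56 and 1.12 CPM in 8h. Its log2 fold change was -1.004 (standard error 0.41, adjusted p = 0.422 in the same edgeR test). DESeq2's Wald test gave an unadjusted p of 0.0889 for TCONS_00058015. After adjustment neither change was past the threshold.

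The 21 members with both 0h values above N had a median 0h level of 1.28 times N, and a median 8h level of 48.7% of N and 37.4% of 0h. TCONS_00038071 was the one with the most reads, followed by TCONS_00020223 (1609 bp), named after its values were seen, which had 50.4 and 44.6 CPM in N, 73.7 and 58.6 CPM in 0h, and 27.7 and 18.9 CPM in 8h. n292604 (1166 bp), also named after its values were seen, had the lowest adjusted p of all members in this comparison. It had 16.0 and 21.8 CPM in N, 29.7 and 43.3 CPM in 0h, and 7.42 and 7.62 CPM in 8h. Its log2 fold change of 0h against N was 0.96 (standard error 0.26, adjusted p = 0.173 in edgeR's quasi-likelihood test, and 0.00787 with the replicate block). With 1 library left out it lay between 0.69 and 1.20, the highest being without N replicate 2. The highest log2 fold change was that of TCONS_00163025 (4225 bp), likewise named after its values were seen, 0.99 (standard error 0.40, adjusted p = 0.421 in the same test). It was 0.60 without 0h replicate 2. Its N libraries had 36 and 37 counts, its 0h libraries 55 and 95, and its 8h libraries 18 and 10.

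For each of the 4 members with the most reads the 95% interval of the withdrawal change included a constant level. The change was 0.01 (standard error 0.14, adjusted p = 0.991 in edgeR's quasi-likelihood test) for n417952, with a 95% interval from -0.29 to 0.31. TCONS_00037197 changed by -0.06 (standard error 0.15, adjusted p = 0.939 in the edgeR test) and TCONS_00112746 by -0.04 (standard error 0.19, adjusted p = 0.971 in the edgeR test). In TCONS_00038071 the change was 0.26 (standard error 0.17, adjusted p = 0.674 in the edgeR test), with an interval from -0.11 to 0.63, and it was 0.13 without 0h replicate 1. Next by reads, n282112 changed by -0.40 (standard error 0.19, adjusted p = 0.519 in the edgeR test). Its interval ran from -0.81 to 0.01. TCONS_00071259 changed by -0.26 (standard error 0.18), with an interval from -0.64 to 0.13.

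Few members were called different between the replicates, which the rule partly builds in. With condition in the model, 0 of the 201 members were called between replicate 2 and replicate 1 by edgeR, beside 1.04% of all tested and 2.20% in the fit restricted to at least 50 counts, and DESeq2's Wald test called 0. At an unadjusted p below 0.05 with no fold limit edgeR called 16 members, or 7.96% beside 13.2% of all tested, and DESeq2 5. In the restricted fit 15 members were called, or 7.46% beside 24.7%. The rule used the lowest and highest libraries of a lncRNA, so that a wide spread between replicates works against membership. The low shares are therefore partly built in, and the size of that part was not tested. Taken within a replicate number, the median 8h level was 43.2% of 0h and 40.8% of N in replicate 1, and 41.9% of 0h and 37.8% of N in replicate 2. The direction of 0h against N was shared by both replicates in 112 members, 81 lower (40.3%, beside 34.2% of eligible lncRNAs) and 31 higher (15.4%, beside 31.8%), and split in 89.

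Read coverage along the members moved with their reads. Of a member's length, reads covered 81.6% in the median in N and 81.2% in 0h, but 61.7% in 8h. For n279381 it went from 89.5% and 80.3% in N to 40.2% and 23.8% in 8h, and for TCONS_00044313 from 75.2% and 79.2% to 39.3% and 33.7%. Among the eligible lncRNAs the medians were 77.9%, 78.5% and 80.5%, without such a drop. Fewer reads cover less of a transcript, so this share is not an independent measure.

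Identifiers that lie close together can belong to transcripts of 1 locus, which may share reads. Within 5 numbers of each other lay 8 members in 4 pairs. TCONS_00013266 and TCONS_00013267 (1812 bp) carry consecutive numbers. TCONS_00013267 had 8.94 and 14.0 CPM in N, 10.8 and 13.2 CPM in 0h, and 3.77 and 3.87 CPM in 8h, with replicate 2 of N the highest library as in TCONS_00013266. n268300 (3200 bp) had 32.4 and 25.4 CPM in N, 21.9 and 25.8 CPM in 0h, and 12.8 and 13.6 CPM in 8h. Its neighbour n268301 (820 bp) had 12.4 and 11.3 CPM in N, 8.23 and 13.4 CPM in 0h, and 4.16 and 3.62 CPM in 8h. In both of these pairs N and 0h overlapped in each lncRNA.

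In the other pairs the members differed in course or in the size of the drop. Size differed in the pairs above too, with 8h means of 20.5% of N for TCONS_00013266 and 33.3% for TCONS_00013267. For n268300 and n268301 they were 45.6% and 32.9% of N. n276764 (3951 bp) had 8.68 and 11.4 CPM in N, 7.496 and 6.12 CPM in 0h, and 2.47 and 3.62 CPM in 8h. n276766 (3072 bp) had 33.1 and 31.3 CPM in N, 45.1 and 47.9 CPM in 0h, and 19.4 and 19.2 CPM in 8h. The first was below N in 0h and the second above it. n266265 (2733 bp) had an 8h mean of 53.5% of N, and n266270 (2688 bp) of 24.3% of N. Next in number to a predicted member stood 23 eligible lncRNAs that were not members. Of these 14 (60.9%) had a lower mean in 8h than in the other libraries, with a median log2 ratio of -0.17, beside 47.8% and 0.02 over all eligible lncRNAs.

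The threshold divides lncRNAs with almost equal values. Just inside it, TCONS_00125686 (3445 bp) had a ratio of 1.501, with 41.0 and 27.4 CPM in N, 31.6 and 29.3 CPM in 0h, and 16.4 and 18.2 CPM in 8h. n272142 and n269675 followed, with ratios of 1.503 and 1.507. Just outside it, TCONS_00162415 (2380 bp) had a ratio of 1.4998, with 29.1 and 26.1 CPM in N, 37.1 and 32.2 CPM in 0h, and 17.4 and 9.87 CPM in 8h. n295005 and TCONS_00085250 came next, at 1.4996 and 1.493.

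The same condition turned to other directions chose sets of similar size. In 265 eligible lncRNAs the lowest 8h level was at least 1.5 times the highest level of N and 0h, and in 213 the 0h libraries were the low ones. The share of predicted lncRNAs was 62.6% in the first and 53.1% in the second, against 58.2% of the members. Median levels per length were 4.15, 5.19 and 4.54 RPKM in the same order. On these features the members were not tested against either set.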

How the data were processed

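RNA depleted of ribosomal RNA was copied from random hexamers and sequenced on an Illumina HiSeq instrument in 6 libraries. The authors deposited, per library, raw counts of uniquely mapped reads per lncRNA, its length, a coverage score (the percentage of the length covered) and RPKM. The same rule on the deposited RPKM chose the same 201 members. Aligner, counting tool and genome build are not given in the sources used here, and the counting is not stated to use strand. A lncRNA absent from a file was given a count of 0. Members were chosen by CPM (count per file total). Tests on the counts used edgeR 4.0.16 (quasi-likelihood, TMM, factors 0.961 to 1.07) in R 4.3.3, in 1 fit of 3 groups and of 39310 lncRNAs, each with 10 counts or more in 2 libraries, with Benjamini-Hochberg adjustment. Fold changes are from this fit, levels and shares from CPM.

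The fit was tested on simulated data. DESeq2 1.42.0, other scalings and filters, a replicate block and left-out libraries were alternatives. Replicate differences correlated at 0.166 (N and 0h), 0.180 (N and 8h) and 0.199 (0h and 8h) across lncRNAs, and the methods name 2 lines. The replicate numbers were therefore taken to pair the samples in the fits with the block. The main fit left this pairing out, and so did its standard errors, intervals and p-values. Members and lists were chosen with earlier results of these data known. Named were the 8 members with the most reads, the 8 with the highest ratio, any called on withdrawal (0), the 3 nearest the threshold on each side, neighbours in number, and the longest and shortest. The labels do not say which line a replicate number stands for. The p-values rest on the spread between 2 libraries per condition, which edgeR and DESeq2 moderate with that of other lncRNAs. Floors cover counting error only.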

Additional observations from a re-analysis of the deposited data

How the results depend on the processing

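With 2 libraries per condition, the number of members depended on the threshold. It was 61 at a ratio of 2, 453 at a ratio midway between 1 and 1.5, 518 at a minimum of 20 counts and 86 at 100. CPM scaled by TMM gave 259, the original 201 among them, and leaving out 1 library gave 251 to 551, the highest counts without replicate 1 (551) or replicate 2 (415) of 8h. For 8h against 0h the count of members called was 119 with no filter, 153 with the replicate block, 23 with only the 2 groups compared and 8 to 32 with 1 library left out, each of the 6 in turn lowering it (8 and 9 without 0h replicates 1 and 2). Against N it was 102 by DESeq2's Wald test, 129 with no filter, 155 with the block and 1 to 39 with 1 library left out (2 and 1 without N replicates 1 and 2, 8 and 4 without 8h replicates 1 and 2). For 0h against N it was 0 under every alternative run, the block and left-out libraries included, and for the replicate number it was 0 under the scalings, filters and tool tried. The block changed no other count of members called. With it, however, n292604 passed the adjusted threshold for 0h against N (adjusted p = 0.00787 in edgeR's quasi-likelihood test). Its log2 fold change of 0.96 fell just short of the 2-fold limit. At an unadjusted p below 0.05 with no fold limit the block raised the members for 0h against N from 15 to 21. Over all lncRNAs tested, 87 were called higher and 114 lower in 0h than in N, 240 and 291 with no filter, 136 and 171 by DESeq2's Wald test, and 277 and 367 with the block. In 8h against 0h, 196 were called higher and 154 lower, and 250 and 107 with total counts.

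The members' median log2 fold change of 8h against 0h was -1.27 with total counts, -1.30 at a minimum of 50 counts and -1.40 to -1.32 with 1 library left out. That of 0h against N was -0.106 with DESeq2's size factors, -0.126 with total counts, -0.106 with the Wald test, -0.105 with no filter, -0.115 at a minimum of 50 counts, -0.0990 with the replicate block and -0.146 to -0.0738 with 1 library left out. The withdrawal change of n417952 turned to -0.0051 with total counts and ranged from -0.041 to 0.058 with 1 library left out, and that of TCONS_00112746 ranged from -0.19 to 0.12. All these alternatives were planned. Where 1 library was left out, the lone library of that condition was assumed to vary like those of the others. Depth limits the members of few reads most.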

Other observations

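Among lncRNAs with enough counts that were left out for their length, rank or name, 0 met the ratio, whereas 317 shorter than 10000 bp met it with at least 20 but not 50 counts in 2 libraries. Of those left out, 6 were 10000 bp or longer with enough counts, and their highest ratio was 1.10. The 30 most-read lncRNAs reached at most 1.18, for n413870. The named transcripts that were set aside included 3 with enough counts, with a highest ratio of 0.413.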
